A study of Mus musculus with 8 samples.

Results

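The class the authors named CD4 T was examined in whole mouse kidneys profiled by single-cell RNA sequencing. Some of the kidneys had been injured by ligation of the ureter, the model named unilateral ureteric obstruction (UUO). The members of the class were all cells that carry its name in the deposited cell table, 2176 of 77393 cells, and 1745 of them (80.2%) came from UUO kidneys and 431 from Control kidneys. Cells the authors placed in their Th17 and Treg classes are not members. The UUO group held 2 samples, numbered 1 and 2, from C57BL/6 mice of 7 weeks whose left ureter was ligated and who were killed on day 7. The Control group held 6 samples, numbered 1 to 6, of the same strain and age. All samples carry the same treatment text, so it is unknown here whether the Control animals had any operation. No label says which samples came from separate animals or whether animals were pooled, so each p-value reflects only how far these samples spread, a spread that may be technical.

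CD4 T cells recognise peptides that other cells present on MHC class II molecules, and they steer other immune cells through the cytokines they release. A naive CD4 T cell that meets its peptide can become one of several helper types, among them Th17 cells, which make interleukin-17, or a regulatory T cell (Treg), which restrains immune responses. In the obstructed kidney T cells are known to enter the space between the tubules together with myeloid cells. T cells are defined by the CD3 complex, of which Cd3e encodes a chain, and this class also by the coreceptor gene Cd4. Gene-level counts are not analysed here, so the class was not checked against Cd3e or Cd4, and its name is the authors' own.

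UUO samples 1 and 2 held 18393 and 12930 cells, and the Control samples held 2263 to 16168. The median cell of a sample held 2496 and 2584 UMIs (unique transcript molecules) in UUO and 1292 to 2944 in Control. Controls 3 and 4 were counted as 1 sample, because their numbers of cells per class differed with a chi-square p of 0.0509, while the highest p among the other 14 Control pairs was 4.09e-41. This left 2 UUO and 5 Control samples, 21 ways of choosing 2 of 7, and a smallest possible exact p of 0.0476. The pooled pair stood apart from the other Control samples in its T cells, and the comparisons among T cell classes are given with and without it. Of the CD4 T cells, 3 barcodes occurred in the CD4 T cells of more than 1 sample, and 0 of these had the same UMIs and genes.

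CD4 T cells took up a larger share of the kidney after obstruction. UUO 1 held 943 CD4 T cells, 5.13% of its cells (exact 95% binomial interval 4.81 to 5.46, counting error only). UUO 2 held 802, or 6.20% (5.79 to 6.63). Among the Control samples, Control 1 held 55 (1.53%), Control 2 held 42 (0.653%), Controls 3 and 4 together held 67 (1.08%), Control 5 held 126 (0.779%) and Control 6 held 141 (1.03%). Both UUO samples lay above every Control sample, by more than the counting intervals. The mean share was 5.66% ± 0.761 (SD, n = 2) in UUO kidneys against 1.01% ± 0.337 (SD, n = 5) in Control kidneys, 5.59 times as high.

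As log2 odds, the UUO minus Control difference in the share of all cells was 2.60 (95% interval 0.93 to 4.26), and limma fitted over all 28 classes called it, with a Benjamini-Hochberg adjusted p of 0.00628. Of the 28 classes, 21.4% were called higher and 28.6% lower, and CD4 T ranked 6 from the highest difference. Also called higher were the T cell classes Th17 (3.10), Treg (2.83), CD8 effector (2.81) and CD8 T (2.76), and basophils (2.74). The T cell class NKT was not called (1.51). The standard error comes from a variance shared by all classes, so it does not measure the spread of CD4 T itself. The exact permutation p was 0.0476, the smallest possible, and 0.111 after adjustment over the classes. The limma call was lost without UUO 1 (difference 2.74, adjusted p 0.0513), where only 1 UUO sample remained and was assumed to vary like the others. Cells can gain share because there are more of them or because fewer other cells were recovered, and these cannot be told apart from a share of all cells.

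**Figure D1:**
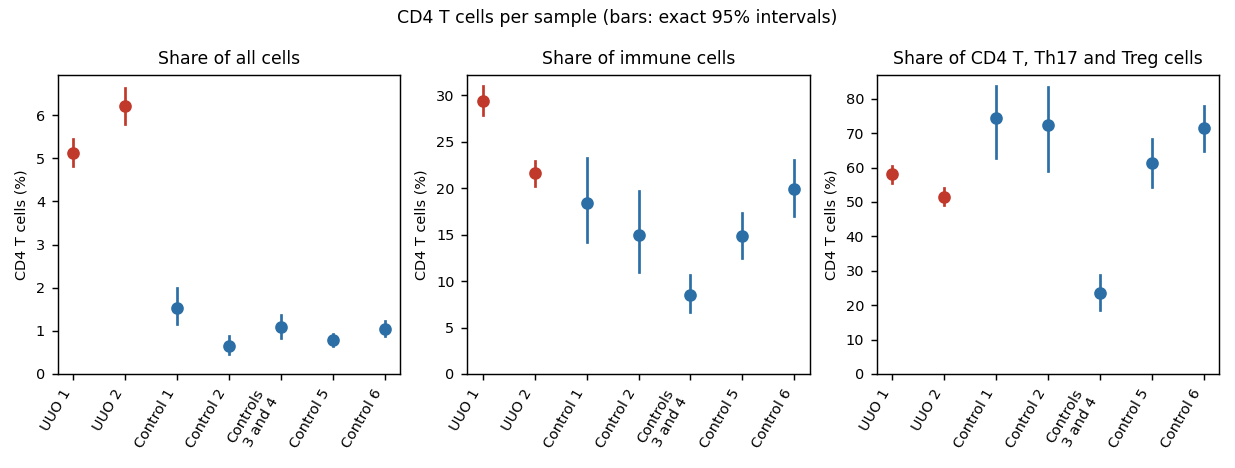
CD4 T cells in percent of the whole sample, of its immune cells, and of CD4 T, Th17 and Treg cells together, with UUO samples in red and Control samples in blue. Points are samples and bars exact 95% binomial intervals; both UUO samples lie above all Control samples in the first and second panels, and Controls 3 and 4 lie lowest in the third at 23.4%.

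The CD4 T share was also taken within the immune cells alone, a share that tubular cells do not enter. CD4 T cells were 29.4% and 21.6% of the immune cells of UUO 1 and 2. They were 18.4% in Control 1, 14.9% in Control 2, 8.51% in Controls 3 and 4, 14.8% in Control 5 and 19.9% in Control 6. Both UUO values were above the highest Control value, but the counting interval of UUO 2 (20.3 to 23.0) overlapped those of Control 6, whose upper bound was also 23.0, and of Control 1 (14.2 to 23.3). The 2 UUO samples also differed from each other by more than counting error, since the interval of UUO 1 ran from 27.8 to 31.0. The log2 odds difference was 0.95 (-0.42 to 2.33, limma adjusted p 0.390 over 15 immune classes), and 0% of these classes were called higher or lower. At an unadjusted limma p under 0.05, 6.67% of them were higher and 6.67% lower. CD4 T was not among these, and edgeR did not call it either (adjusted p 0.265 with sample totals and 0.454 with TMM scaling).

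The next question was whether CD4 T cells kept their place among the T cells. Of all cells in the 6 T cell classes (CD4 T, Th17, Treg, CD8 T, CD8 effector and NKT), CD4 T cells made up 42.2% in UUO 1 and 31.9% in UUO 2. They made up 50%, 47.7%, 39.3% and 48.5% in Controls 1, 2, 5 and 6, and 12.4% in Controls 3 and 4. The pooled pair therefore stood far below every other sample, UUO included, with 252 Treg and 155 CD8 T cells for every 100 CD4 T cells. The log2 odds difference was -0.04 (exact permutation p = 1), and it took the other sign when Controls 3 and 4 were kept separate (0.30). Without them it was -0.56 (exact p = 0.133).

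Against the 2 helper classes set apart from it, CD4 T cells showed the same dependence. They were 58.1% of the CD4 T, Th17 and Treg cells in UUO 1 and 51.5% in UUO 2. They were 74.3%, 72.4%, 61.5% and 71.6% in Controls 1, 2, 5 and 6, and 23.4% in Controls 3 and 4. The other 4 Control samples all lay above both UUO samples, and the pooled pair lay below them. Over all samples the log2 odds difference was -0.35 (exact permutation p = 0.810), and with Controls 3 and 4 as separate samples it was 0.02. Without the pair it was -0.94, with an exact p of 0.0667, the smallest that 4 Control and 2 UUO samples allow. Among the libraries over 10000 cells (both UUO samples, Controls 5 and 6) it was -0.72, where 2 samples against 2 cannot go below p of 0.333.

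Th17 cells, counted per 100 CD4 T cells, numbered 37.5 and 44.3 in UUO 1 and 2. In the Control samples they numbered 14.5, 26.2, 33.3 and 16.3 in Controls 1, 2, 5 and 6 and 74.6 in Controls 3 and 4. Treg numbered 34.7 and 49.8 per 100 CD4 T cells in UUO 1 and 2, and 20, 11.9, 29.4 and 23.4 in Controls 1, 2, 5 and 6. In both classes the UUO samples lay above these 4 Control samples and below the pooled pair. The log2 ratio of CD4 T to Th17 cells differed by -0.54 (exact permutation p = 0.476), and by -0.90 without Controls 3 and 4 (exact p = 0.133). That of CD4 T to Treg differed by -0.28 (exact p = 0.810), and by -0.997 without the pair (exact p = 0.133). Both differences thus depended on the pooled pair for their size.

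CD8 T cells, the cytotoxic lineage, numbered 25.2 and 42.0 per 100 CD4 T cells in UUO and 16.7 to 19.9 in Controls 1, 2, 5 and 6. The log2 ratio of CD4 T to CD8 T cells differed by -0.21 (exact permutation p = 0.810), and by -0.83 without Controls 3 and 4 (exact p = 0.0667, the smallest possible there). CD8 effector cells numbered 22.9 and 47.3 in UUO and 14.9 to 70.1 in the 5 Control samples, with a difference of -0.26 in the log2 ratio (exact permutation p = 0.810) and of -0.60 without the pair (exact p = 0.333). NKT cells, T cells that also carry natural killer receptors, numbered 16.5 and 29.9 in UUO and 25.5 to 155 in the Control samples. Their difference was 1.03 (exact permutation p = 0.381), and 0.59 without the pair (exact p = 0.400).

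Relative to CD4 T cells, macrophages and plasmacytoid dendritic cells differed most between the groups. For every 100 CD4 T cells there were 4.67 and 8.23 macrophages, the tissue phagocytes, in UUO 1 and 2. In Controls 1, 2, 5 and 6 there were 125, 112, 35.7 and 26.2 macrophages, and in Controls 3 and 4 there were 31.3. The groups did not overlap, and the log2 ratio of CD4 T cells to macrophages was higher in UUO by 3.09 (exact permutation p = 0.0476, adjusted p = 0.222 over 14 classes). Conventional and plasmacytoid dendritic cells are known for presenting antigen to T cells and for making interferon. The class DC had 4.45 and 9.23 cells per 100 CD4 T cells in UUO, against 11.3 to 31.0 in the Control samples. The class pDC had 1.38 and 6.86 cells in UUO, against 8.51 to 18.2 in the Control samples. The log2 ratio of CD4 T to DC was higher by 1.55 and that of CD4 T to pDC by 2.11, each with an exact permutation p of 0.0476 and an adjusted p of 0.222. As shares of all cells, macrophages, DC and pDC were not called by limma. Their log2 odds differences were -0.57 (adjusted p 0.550), 0.98 (0.327) and 0.42 (0.644), against 2.60 for CD4 T.

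Of the 14 ratios, 21.4% were higher at an unadjusted exact p under 0.05 (macrophages, DC and pDC), 0% were lower, and 0 passed after adjustment, which would have needed all 14 at the smallest p. With limma in place of the exact test, macrophages, pDC and proliferating lymphocytes passed an unadjusted p of 0.05, and only macrophages passed after adjustment. DC did not pass with limma (unadjusted p 0.0847). All 14 ratios share the CD4 T cell number, so they are not independent of each other. The pDC difference rested on UUO 1, which held 13 pDC: it was 0.98 without UUO 1 and 3.25 without UUO 2. The DC difference was 1.03 without UUO 1, and 1.17 (exact p = 0.286) when cells with at least 10% mitochondrial UMIs were left out. For macrophages the difference lay between 2.68 and 3.49 whichever sample was left out, and with cells of at least 1000 UMIs it was 3.03 (exact p = 0.0952).

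Basophils, the rare granulocytes in the title of the series, had no detectable difference in number relative to CD4 T cells. They numbered 3.61 and 8.10 per 100 CD4 T cells in UUO 1 and 2, and 1.82, 4.76, 10.4, 7.14 and 1.42 in the Control samples. The groups overlapped, and the log2 ratio of CD4 T cells to basophils differed by -0.21 (exact permutation p = 0.810). The Control values rest on 1 to 9 basophils a sample, which leaves a wide counting error.

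**Figure D2:**
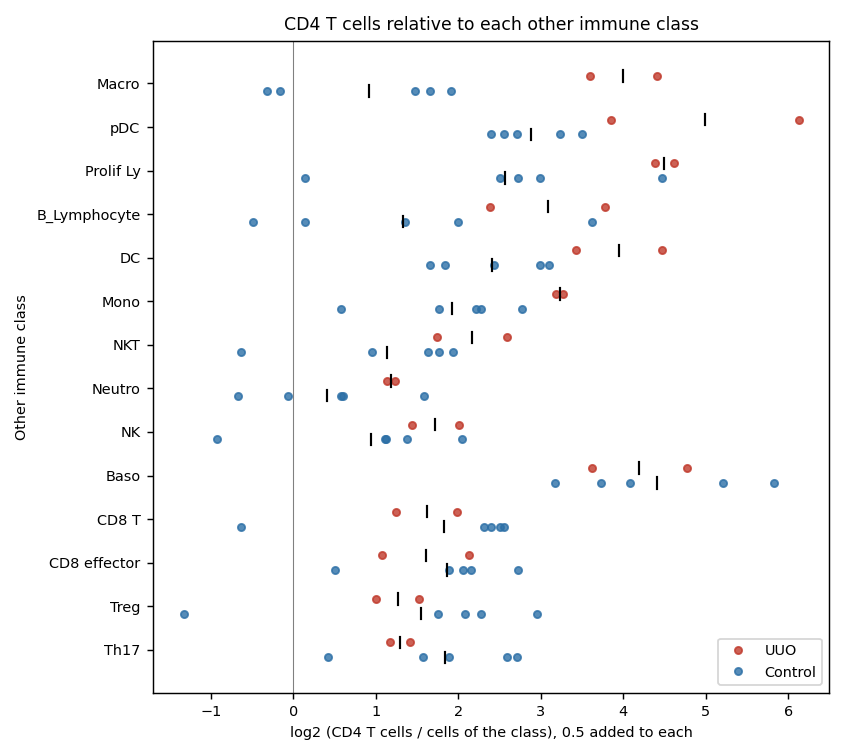
The log2 ratio of CD4 T cells to the cells of each other immune class, with UUO samples (red) above Control samples (blue) in each class and black ticks at group means. Classes are ordered by the UUO minus Control difference, from 3.09 for macrophages at the top to -0.54 for Th17 cells at the bottom.

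The UMI and gene numbers of CD4 T cells were compared next, since both depend on a library's depth as well as on how much RNA a cell holds. The median CD4 T cell held 1977 and 2186 UMIs in UUO 1 and 2. In the Control samples it held 1462 (Control 1), 1725 (Control 2), 2247 (Controls 3 and 4), 2055 (Control 5) and 1461 (Control 6). The groups overlapped, and the UUO to Control ratio was 1.18 (95% interval 0.803 to 1.73, limma adjusted p 0.535 over 19 classes). Genes per CD4 T cell had medians of 784 and 826 in UUO and of 586, 696, 830, 761 and 586 in Controls 1, 2, 3 and 4 pooled, 5 and 6. Their ratio was 1.17 (0.868 to 1.59, adjusted p 0.366). Of the 19 classes, limma called 10.5% higher in UMIs and 5.26% in genes. The median class differed by 0.40 in log2 UMIs and by 0.33 in log2 genes, against 0.24 and 0.23 for CD4 T.

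Among cells of 1000 to 2000 UMIs, where 395 and 296 UUO cells and 21 to 95 cells of each Control sample lay, CD4 T cells of UUO 1 and 2 had medians of 686 and 691.5 genes. Those of the Control samples had 588.5, 675, 719, 665 and 590 genes, in the same order as above. The pooled Controls 3 and 4 lay above both UUO samples and the other Control samples lay below them. The difference of means was 41.25 genes (exact permutation p = 0.381). Within this range the cells were not spread alike: 163 lay below 1500 UMIs and 232 above in UUO 1, and 93 and 203 in UUO 2, against 50 and 45 in Control 6 and 12 and 34 in Control 5.

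CD4 T cells held fewer genes than the other T cell classes in that range of UMIs. The ratio of the CD4 T median to that of Th17 cells lay between 0.798 and 0.865 in the 5 samples with at least 10 cells of both classes in the range. To Treg it lay between 0.798 and 0.990 and to NKT cells between 0.829 and 0.922, each in 2 UUO and 3 Control samples. To CD8 T cells it lay between 0.876 and 0.944 and to CD8 effector cells between 0.805 and 0.944, each in 2 UUO and 2 Control samples. The highest ratios to Treg, 0.990 and 0.937, were those of Controls 5 and 6. There 73.0% and 78.8% of Treg had at least 10% mitochondrial UMIs. The classes were drawn from the same expression data, so no test was made of these differences. In total UMIs the order was another: the median CD4 T cell held 1.14 to 1.47 times the UMIs of the median CD8 T cell in all 7 samples, but more than the median Th17 cell in only 2 of 7.

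Mitochondrial transcripts, a high share of which is commonly read as a sign of damaged cells, were scarce in the class. This was not particular to it: the medians of Th17 and of CD8 effector cells were lower in every sample. Over the samples, CD8 T medians ran from 1.60% to 5.19% and NKT medians from 1.70% to 5.65%. The median CD4 T cell had 2.84% and 3.55% mitochondrial UMIs in UUO 1 and 2. It had 2.57%, 3.13% and 2.09% in Control 1, Control 2 and Controls 3 and 4, and 4.63% and 5.24% in Controls 5 and 6, the larger Control libraries. The mean difference was -0.33 percentage points (-3.86 to 3.20, limma adjusted p 0.898), 0% of the 19 classes were called in either direction, and 0 were below an unadjusted p of 0.05. The sign turned without UUO 1 (0.022) or without Control 6 (0.095). Cells at or above 10% mitochondrial UMIs numbered 12 of 943 and 35 of 802 in UUO, and 2 of 55, 0 of 42, 1 of 67, 10 of 126 and 18 of 141 in the Control samples. The 0 of 42 in Control 2 allows a share of up to 7.14%. In Controls 5 and 6 these cells were 7.94% and 12.8% of CD4 T cells, whereas among their Treg they were 73.0% and 78.8%. Treg counts in those libraries, and the ratios to Treg above, therefore include many such cells, and without them the CD4 T to Treg log2 ratio differed by -0.99 (exact permutation p = 0.619).

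**Figure D3:**
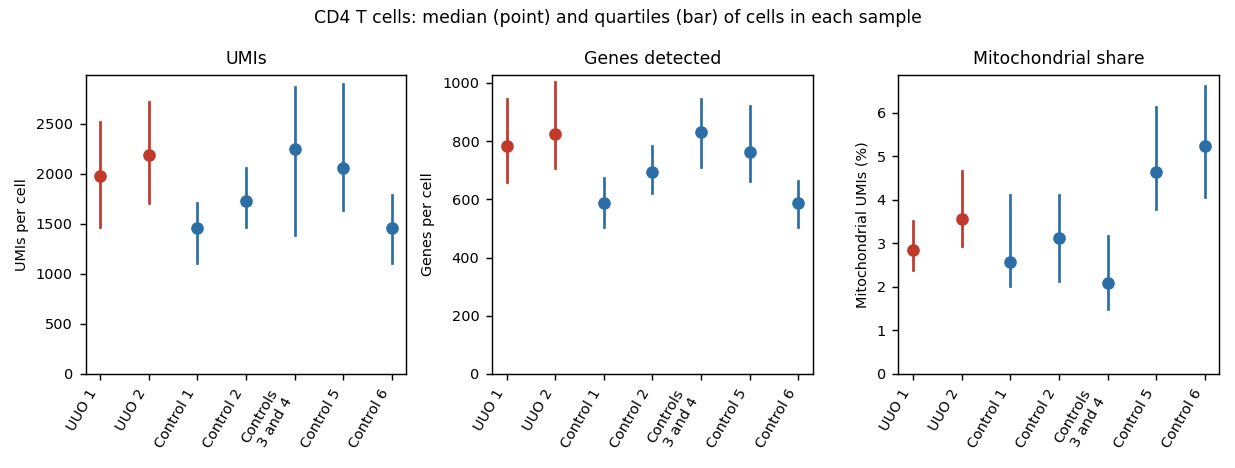
UMIs, genes detected and mitochondrial UMIs per CD4 T cell in each sample, with points at medians and bars from the lower to the upper quartile of cells. UUO medians of 1977 and 2186 UMIs lie within the Control range of 1461 to 2247, and Controls 5 and 6 have the highest mitochondrial medians.

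The upper tail of genes per cell reached further in the obstructed kidneys, whose 95th percentiles were 1353 and 1589 genes in UUO 1 and 2, against 792 to 1315 in the Control samples. At least 1500 genes were detected in 26 of 943 CD4 T cells of UUO 1 (2.76%) and 55 of 802 of UUO 2 (6.86%). In the Control samples this held for 0 of 55, 0 of 42, 1 of 67, 1 of 126 and 0 of 141 cells. The counts of 0 allow shares of up to 5.45%, 7.14% and 2.13% in Controls 1, 2 and 6. The exact 95% upper bounds were 8.04% in Controls 3 and 4 and 4.34% in Control 5. A share like that of UUO 1 was thus within the counting error of every Control sample but Control 6. This threshold was chosen after the values were seen, so no test result is given. At 1200 genes the groups overlapped, with 9.01% and 13.8% in UUO 1 and 2 and 10.4% in Controls 3 and 4.

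These cells also held many UMIs, with a median of 5184 over the 81 in UUO. Whether any hold the RNA of more than 1 cell was not tested, since the files used here carry no doublet call. Among CD4 T cells of 3000 to under 4000 UMIs the median was 1221 and 1170 genes in UUO 1 and 2 (72 and 92 cells). It was 1058, 974 and 950 genes in Controls 3 and 4, Control 5 and Control 6, from 7, 21 and 5 cells, while Controls 1 and 2 had 1 such cell each. The median UMIs within this range were 3349 and 3368 in UUO and 3377, 3190 and 3254 in those Control samples. Such gene-rich cells also occurred in other T cell classes. Cells of at least 1500 genes were 19.2% and 27.0% of Th17 cells in UUO 1 and 2, against 0% to 27.3% in the Control samples, where the highest value is 3 of 11 cells in Control 2. They were 12.2% and 12.0% of Treg in UUO, against 0% to 10.8% in Control, and 3.21% and 5.42% of NKT cells in UUO, against 0% to 0.962% in Control. Among CD8 T cells they were 0.420% and 3.26% in UUO and 0% to 4.76% in Control. Among CD8 effector cells they were 1.85% and 5.01% in UUO and 0% to 10% in Control, where the highest value is 3 of 30 cells in Control 5.

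**Figure D4:**
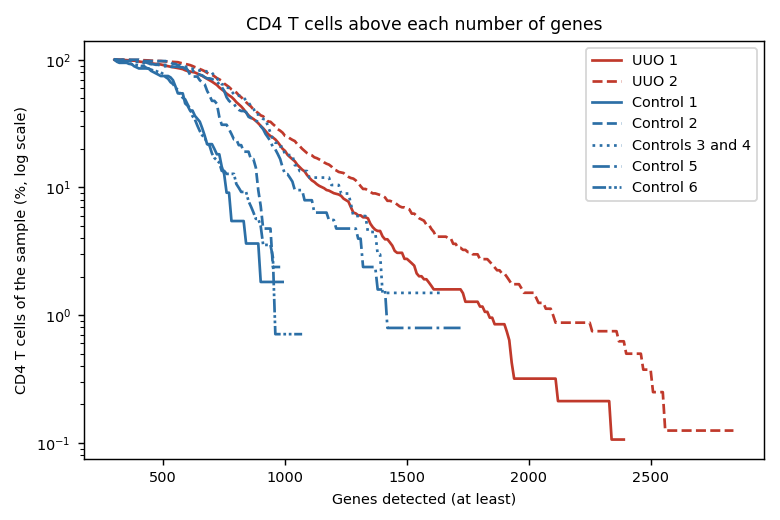
Percent of each sample's CD4 T cells (log scale) in which at least the number of genes on the horizontal axis was detected, with UUO in red and Control in blue. Both UUO curves run beyond 2000 genes, where no Control sample has a cell. Control samples of 42 to 141 CD4 T cells are too small to show a share as low as that of UUO 1 there (0.318%). At 1200 genes Controls 3 and 4 (10.4%) lie between UUO 2 (13.8%) and UUO 1 (9.01%).

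The authors' UMAP embedding, in which cells of similar expression lie close together, placed the CD4 T cells of the obstructed kidneys lower on its second axis. The sample medians there were 0.68 and 0.68 in UUO 1 and 2, against 1.02, 0.99, 0.78, 1.09 and 1.03 in Control 1, Control 2, Controls 3 and 4, Control 5 and Control 6. On the first axis the groups overlapped, at -6.50 and -6.50 in UUO and -6.70 to -6.42 in Control. The distance between the group means of these medians was 0.311 UMAP units (one-sided exact permutation p = 0.0476, adjusted p = 0.238 over 5 exact tests). Control 4 taken alone had a median of 0.68, as low as the UUO samples, and Control 3 one of 1.05. With these 2 kept separate the distance was 0.301 and the exact p 0.107. UMAP distances have no unit, and the embedding was built from these same cells.

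Part of the class reached below 0 on the second axis. It held 223 of the 943 CD4 T cells of UUO 1 (23.6%) and 220 of the 802 of UUO 2 (27.4%). In the Control samples it held 3 of 55 (5.45%), 2 of 42 (4.76%), 14 of 67 (20.9%), 9 of 126 (7.14%) and 14 of 141 (9.93%). Controls 3 and 4 lay near the UUO samples and the other 4 Control samples well below them. The boundary was set after the values were seen, so no test result is given.

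Cells in the lower part were richer in genes. In UUO 1 and 2 they had medians of 963 and 1000 genes, and the cells above 0 had 742 and 779. At 1000 to 2000 UMIs the medians were 779 and 776 genes below 0 and 673.5 and 674 above it. Spearman's correlation of genes with the second axis, across the cells of each sample and given as a description, was -0.56 and -0.57 in UUO 1 and 2 (943 and 802 cells). It lay between -0.70 and -0.51 in Controls 1, 2, 5 and 6 and was -0.17 in Controls 3 and 4. Of the 81 UUO cells with at least 1500 genes, 57 (70.4%) lay below 0, against 23.2% of the other UUO cells of the class.

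**Figure D5:**
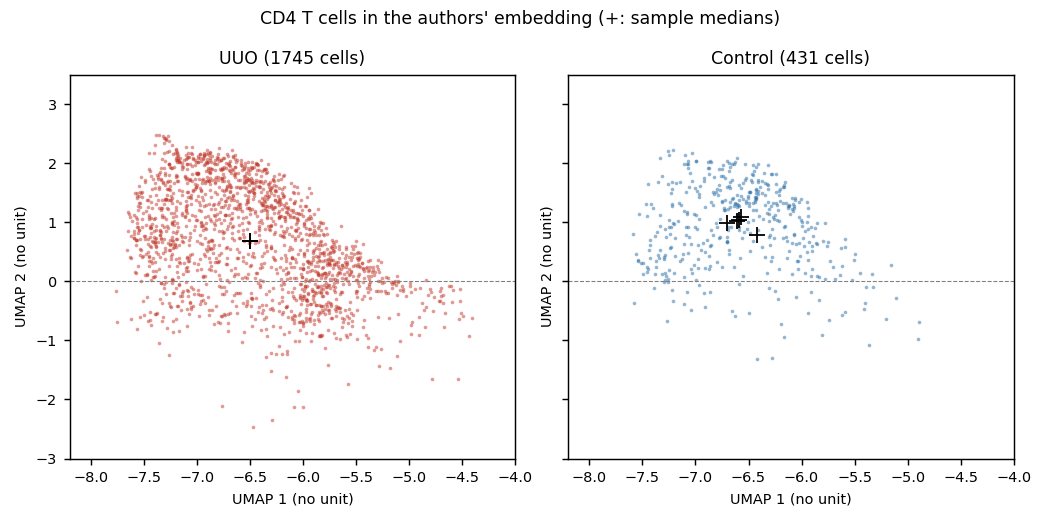
Positions of CD4 T cells in the authors' embedding, UUO on the left and Control on the right, with sample medians as crosses and a dashed line at 0 on the second axis. UUO cells extend further below the line, where 23.6% and 27.4% of the cells of UUO 1 and 2 lie; 4 UUO cells and 1 Control cell fall outside the plotted area.

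Most CD4 T cells were surrounded by their own class. Of the 20 nearest cells in the embedding, 93.6% on average were also CD4 T, 2.62% were Treg, 2.60% CD8 T and 0.682% Th17. The share of own-class neighbours in the other T cell classes ran from 56.2% in CD8 T cells through 74.1% in Treg, 81.9% in NKT cells and 83.1% in CD8 effector cells to 90.5% in Th17 cells, and larger classes have more of their own cells to find. Own-class neighbours averaged 93.9% and 91.9% for the CD4 T cells of UUO 1 and 2, against 97.6%, 96.5%, 92.8%, 96.6% and 96.7% for the Control samples. The difference was -3.15 percentage points (exact permutation p = 0.0952, adjusted p = 0.238). Treg made up 2.55% and 3.52% of the neighbours in UUO 1 and 2, 3.51% in Controls 3 and 4 and 0.182% to 1.10% in the other Control samples. There were 7 and 11 cells with 0 CD4 T neighbours in UUO 1 and 2 and 1 in Control 5, so these few carry a class name that their position does not share.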

How the data were processed

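Whole kidneys were profiled with the 10x Genomics Chromium 3′ assay, per the labels' protocols. The submitters' processing notes name Seurat 4.0.1, Cell Ranger 6.0.1 and mm10, with no roles, and how the authors filtered cells, called classes and built the embedding is not stated there. The deposited table gives each cell UMIs and genes as whole counts, not normalized, and mitochondrial UMIs as a percent, per the file headers. UMAP coordinates are a score without unit made by the authors, joined by cell name; they cover 25200 cells, every one but those in class PT. No doublet caller was run here.

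Members, classes compared and tests were chosen with earlier results of these data known. Gene-level counts were not analysed, so the text names classes: CD4 T and the 5 other T cell classes. Of the other immune classes it names those with the highest and lowest ratio difference or an exact p under 0.05. Basophils, proliferating lymphocytes, monocytes, B lymphocytes, natural killer cells and neutrophils fall outside this rule and were named after their values were seen. Shares were fitted as log2((n + 0.5)/(N - n + 0.5)) with limma 3.58.1 in R 4.3.3 over classes of at least 20 cells. Log2 sample medians of UMIs and genes, and median mitochondrial percentages, were fitted over the 19 classes that had 20 or more cells in 2 or more samples per group. Other values were compared by two-sided exact permutation of samples, except the UMAP distance (one-sided). Benjamini-Hochberg adjustment was used with a threshold of 0.05. Intervals on shares are exact (Clopper-Pearson) 95% intervals, and they and the limits for 0 counts (3 counts) cover counting error only. Depth per sample was 4375940 to 56755800 UMIs. Alternatives included edgeR 4.0.16 on cell numbers. The functions were tested on simulated data.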

Additional observations from a re-analysis of the deposited data

Results flagged for a closer look

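In all, 5 values of the CD4 T class lay far from the other Control samples, each in the pooled Controls 3 and 4. Among the Control samples the gap to the nearest other sample exceeded Dixon's 95% critical value for 5 samples. CD4 T cells were 12.4% of the T cell classes there, against 39.3% in the nearest Control sample, and 23.4% of CD4 T, Th17 and Treg cells, against 61.5%. The log2 ratio of CD4 T to Treg was -1.33, against 1.75 in the nearest, and that of CD4 T to CD8 T was -0.63, against 2.31. Own-class neighbours in the embedding were 92.8%, against 96.5% in the nearest. Chance alone marks about 1 in 20 groups, and 25 were looked at. The 5 values share the same cells, so they are not separate findings. The share of CD4 T cells among all cells in this pair, 1.08%, was not marked.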

How the results depend on the processing

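The higher CD4 T share of all cells kept its direction under every alternative run, with log2 odds differences of 2.45 to 2.76 when each sample was left out. It passed limma's threshold without UUO 2 (adjusted p 0.0492) and missed it without UUO 1, with the replicate block (2.55, adjusted p 0.0532) and with the exact permutation test (2.60, adjusted p 0.111). The replicate block, here and below, sets only UUO 1 against Control 1 and UUO 2 against Control 2. The other Control samples share no number with a UUO sample and do not enter the difference. Whether the replicate numbers pair the samples is unknown here. Over classes, UUO 1 and Control 1 deviated with r = -0.33 and UUO 2 and Control 2 with r = 0.06. With only 2 UUO samples, the deviations of 1 mirror those of the other, so these values cannot decide it. The share of immune cells missed the threshold throughout (leave-one-out 0.66 to 1.25). With 8 separate samples the difference was 0.30 in the share of T cell classes and 0.025 in that of CD4 T, Th17 and Treg, both of the other sign, and leaving out each sample gave -0.36 to 0.28 and -0.54 to -0.14. Ratios with an unadjusted exact p under 0.05 numbered 0 in the libraries over 10000 cells and 0 without Controls 3 and 4. In both sets too few samples remain to reach it. They numbered 2 without Control 3 and 3 without Control 4. They numbered 0 when any other single sample was left out, where again too few samples remain to reach it. With limma and the replicate block in place of the exact test, 6 had an unadjusted p under 0.05. The exact test gave 1 with cells of at least 1000 UMIs and 1 without cells at or above 10% mitochondrial UMIs. The cause of the 2 drops to 1 was not tested.

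The CD4 T to Treg ratio took the other sign with 8 separate samples (0.18) and without Control 2 (0.073), CD4 T to CD8 T with 8 samples (0.20) and without UUO 2 (0.16), CD4 T to CD8 effector without UUO 2 (0.26), and CD4 T to basophils with 8 samples (0.048), without high-mitochondrial cells (0.080), UUO 2 (0.37) or Control 6 (0.14). When each sample was left out these 4 ratios differed by -0.54 to 0.073, -0.58 to 0.16, -0.78 to 0.26 and -0.79 to 0.37. UMIs per cell (log2, 0.17 to 0.31 when each sample was left out) and genes per cell (0.18 to 0.27) missed the threshold under every alternative, as did genes at matched UMIs (26.5 to 59.1 genes). The mitochondrial difference was 0.35 with the replicate block and -0.69 to 0.095 when each sample was left out. The UMAP distance missed an exact p of 0.05 with 8 samples (0.301), in libraries over 10000 cells (0.389) and without Controls 3 and 4 (0.370), and was 0.285 to 0.368 when each sample was left out. The libraries over 10000 cells and the set without Controls 3 and 4 are too few to reach it. Leaving out Control 4 alone kept it (0.368, exact p = 0.0476), and leaving out Control 3 alone did not (0.288, exact p = 0.143). Own-class neighbours differed by -3.25 points with cells of at least 1000 UMIs (exact p = 0.0476) and by -4.39 to -2.36 when each sample was left out. Control samples of 42 to 141 CD4 T cells limit every value per sample.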

Other observations

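The 2 UUO samples differed in how many other immune cells there were per CD4 T cell. Each of the 14 other immune classes was more numerous per 100 CD4 T cells in UUO 2 than in UUO 1, by a ratio of 1.07 for monocytes to 4.97 for pDC. These ratios all share the CD4 T count, and CD4 T cells were 29.4% of immune cells in UUO 1 and 21.6% in UUO 2. B lymphocytes numbered 7.21 in UUO 1 and 19.1 in UUO 2, natural killer cells 24.9 and 36.8, and neutrophils 42.4 and 45.6. These samples carry the same labels, so the values are given with no comparison of conditions.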
